A study of Bos taurus with 81 samples.

Results

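In cattle, 13004 sites of 1 kb carried H3K27ac, the acetylation of histone H3 at lysine 27, in embryos of 2 cells but not in the oocyte. They were chosen by dividing autosomes 1 to 29 into 2488055 bins of 1 kb and calling a bin marked in a library where at least 50% of it lay under that library's peaks. A bin was called new at 2C where it was marked in both H3K27ac libraries of the 2-cell stage and in neither library of the oocyte. These bins made up 0.523% of the autosomal bins and 43.7% of the 29791 bins (1.2% of all) marked in both 2C libraries. The values that chose them, H3K27ac in the oocyte and at 2C, are described below without a test.

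The study profiled H3K4me3, H3K27ac, H3K27me3 and H3K9me3 by CUT&Tag, an assay in which an antibody guides a DNA-cutting transposase to chromatin that bears the mark. The 9 groups were immature oocytes with an intact germinal vesicle (GV), embryos fertilised and grown in vitro to 2 cells (2C, 32 h after insemination), 4 cells (4C, 44 h) and 8 cells (8C, 56 h), 8-cell embryos grown with 50 μg/ml α-amanitin (8A, also 56 h), morulae (MO, 122 h), whole blastocysts (BL, 172 h), and 2 parts of the blastocyst: its inner cell mass (ICM), freed by immunosurgery, and its trophectoderm (TE), cut off with a blade. There were 2 libraries of each mark in every group. ATAC-seq, a map of open chromatin made with no antibody, had 3 libraries each for BL, ICM and TE. Every library came from pooled oocytes or embryos, and the labels do not say whether the libraries of a group came from separate collections, so the spread between them may be technical.

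H3K27ac is deposited at active promoters and enhancers, and the same lysine can instead be trimethylated by Polycomb repressive complex 2 to give H3K27me3, so a single histone tail cannot carry both. H3K4me3 marks active or poised promoters and, in mammalian oocytes, also wide domains away from promoters. H3K9me3 marks constitutive heterochromatin and silenced repeats. In cattle the embryo relies largely on maternal RNA until its own genome is strongly activated at about the 8-cell stage, and α-amanitin blocks that transcription by inhibiting RNA polymerase II.

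The authors called peaks in each library separately, and the files give no read totals, so the depth behind each list is unknown. Autosomal lists held 58732 to 158491 peaks for H3K27ac, 21874 to 178845 for H3K4me3, 12477 to 29713 for H3K27me3 and 7654 to 18799 for H3K9me3. A longer list marks more bins of every kind, so each share of the new bins is set beside the share of all autosomal bins marked by the same lists. No pair of lists was identical. For comparison, 12430 bins were marked in both oocyte and both 2C H3K27ac lists ("kept" bins below) and 67757 in both oocyte lists and neither 2C list ("oocyte-only" bins). Neighbouring bins share peaks and are not independent replicates, and a mark present in fewer cells cannot be told apart here from less of the mark in each cell.

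The choice itself left a margin on either side. Of the new bins, 10156 (78.1%) had no base under an oocyte H3K27ac peak, and 1113 had 40% to under 50% of their length covered in the more covered oocyte list. Just outside the limit, 1445 bins marked in both 2C lists had 50% to under 60% oocyte coverage. The median coverage in the less covered 2C list was 65%, and 3826 new bins lay between 50% and 60%, against 3897 bins at 40% to under 50% that were left out. The median distance from a new bin to the nearest oocyte H3K27ac peak was 2300 bp, and 4410 bins (33.9%) were more than 5 kb away. The 2C peaks that touched new bins had a median width of 900 bp in replicate 1 and 1000 bp in replicate 2, against 750 and 850 bp over all peaks of those lists. With a single 2C library in the rule the number of bins was 36696 (without replicate 1) or 28832 (without replicate 2), so the requirement of both libraries sets the number.

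Before fertilisation most of the new bins already carried other marks. H3K4me3 marked 68.7% of them in GV replicate 1 and 76.5% in replicate 2, against 5.82% and 7.47% of all bins. H3K27me3 marked 67.0% and 65.8%, against 9.55% in each library over all bins. H3K9me3 marked 6.11% and 6.71%, just below the 7.54% and 7.47% of all bins. The new bins were therefore under H3K4me3 and H3K27me3 peaks in the oocyte far more often than a bin of the genome at large, and under H3K9me3 peaks no more often.

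Counted over both GV libraries, 8458 new bins (65.0%) had H3K4me3 in both, with a background of 4.79% of all bins. H3K27me3 was present in both GV libraries at 8092 (62.2%, background 7.28%) and H3K9me3 at 715 (5.50%, background 5.82%). H3K4me3 and H3K27me3 together, the pair known as bivalent chromatin at the promoters of developmental regulators, were present at 6261 bins (48.1%, background 2.01%). H3K4me3 in both libraries without H3K27me3 in either was found at 1564 (12%, background 2.37%). H3K27me3 in both libraries without H3K4me3 in either was found at 674 (5.18%, background 4.1%), and 1652 (12.7%, background 83.6%) had neither mark in any GV library. In the remaining 2853 the libraries of a mark differed.

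The kept bins differed from the new bins mostly in H3K27me3. The choice of bins left GV H3K27ac out of the new bins and required it in the kept and oocyte-only bins. H3K27ac and H3K27me3 share a lysine, so this comparison is not independent of the choice. New bins more than 5 kb from an oocyte H3K27ac peak had GV H3K27me3 at 79.7% and 79.6%. GV H3K27me3 marked 20.9% and 17.1% of kept bins and 6.72% and 4.40% of oocyte-only bins. GV H3K4me3 marked 79.1% and 86.6% of kept bins and 33.2% and 42.9% of oocyte-only bins. Bins with both marks made up 13.9% of kept and 2.32% of oocyte-only bins, against 48.1% of the new ones. When every list of a mark was shortened by score to one covered length, GV H3K4me3 in both libraries was found at 27.4% of the new bins, H3K27me3 at 33.2% and H3K9me3 at 2.11%. The shares thus depend on list length. Single shortened GV libraries marked 38.3% and 37.4% of the new bins for H3K4me3, against 1.56% and 1.55% of all bins, and 38.2% and 38.0% for H3K27me3, against 4.42% of all bins in each.

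**Figure D1:**
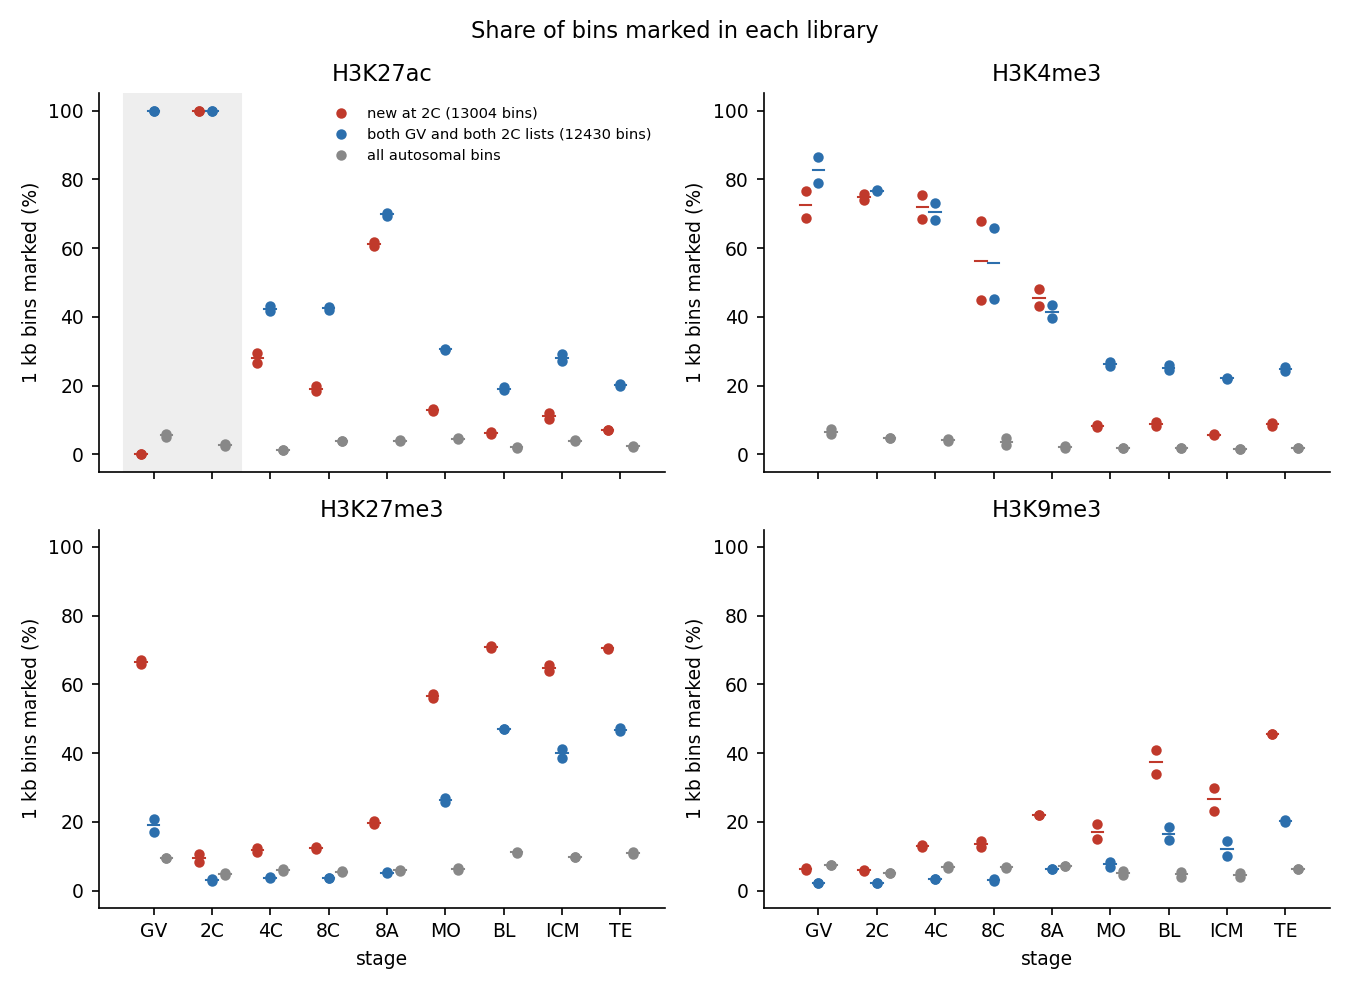
Percentage of bins marked (vertical axis) in each library (points; short lines are the mean of 2 libraries) at each stage, for the bins new at 2C, the bins marked in both GV and both 2C H3K27ac lists, and all autosomal bins. Grey shading covers the H3K27ac groups that chose the bins; H3K27me3 at the new bins was 66.4% in GV, 9.52% at 2C and 70.9% in BL, and H3K27ac was 61.2% in 8A against 19.1% in 8C.

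At the 2-cell stage the new bins had H3K4me3 much as before, and H3K27me3 was far lower. H3K4me3 marked 75.7% and 74.0% of them at 2C, within the range of the GV libraries. H3K27me3 marked 8.41% and 10.6%, against 4.42% and 5.26% of all bins. The mean was 56.9 points below GV, or 64.2 times the pooled SD of replicates, which was 0.886 points for this mark. Over all bins the same step was a loss of 4.71 points, over kept bins 15.9 points and over oocyte-only bins 2.85 points. These sets began lower: the mean went from 19.0% to 3.10% in kept bins and from 66.4% to 9.52% in new bins. The rule chose bins that gained H3K27ac at this step, on the same lysine, so the fall is not independent of the choice. With lists shortened to one length the new bins still went from 38.2% and 38.0% in GV to 6.44% and 6.82% at 2C.

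Of the 8092 new bins with H3K27me3 in both GV libraries, 85.8% had it in neither 2C library. The same was true of 71.3% of all bins with H3K27me3 in both GV libraries and of 81.9% of the kept bins that had it. In all, 6944 new bins (53.4%, background 5.19%) were marked by H3K27me3 in both GV and neither 2C library. The complete sequence, with H3K4me3 and H3K27me3 in both GV libraries, then H3K4me3 in both and H3K27me3 in neither 2C library, was found at 4699 new bins (36.1%, against 0.907% of all bins, 9.88% of kept and 1.06% of oocyte-only bins). H3K4me3 was present in both 2C libraries at 8698 new bins (66.9%, background 3.44%), of which 7215 (55.5% of the new bins, against 2.58% of all bins) had it in both GV libraries too and 516 (3.97%, against 0.312%) had it in neither.

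The other marks of the oocyte reached beyond the new bins. H3K4me3 in GV covered 68.1% of the bin centres and 31.6% of the positions 10 kb away, averaged over both libraries and sides. H3K27me3 in GV covered 63.4% of the centres and 42.8% of the positions 10 kb away. For H3K27ac at 2C the values were 90.5% and 16.4%, but the rule itself sets a summit of that mark at the centre, so its width is not compared with the others. H3K27me3 and H3K9me3 peaks lay on a coarser grid, 200 bp against 50 bp, so exact widths are not comparable between marks.

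**Figure D2:**
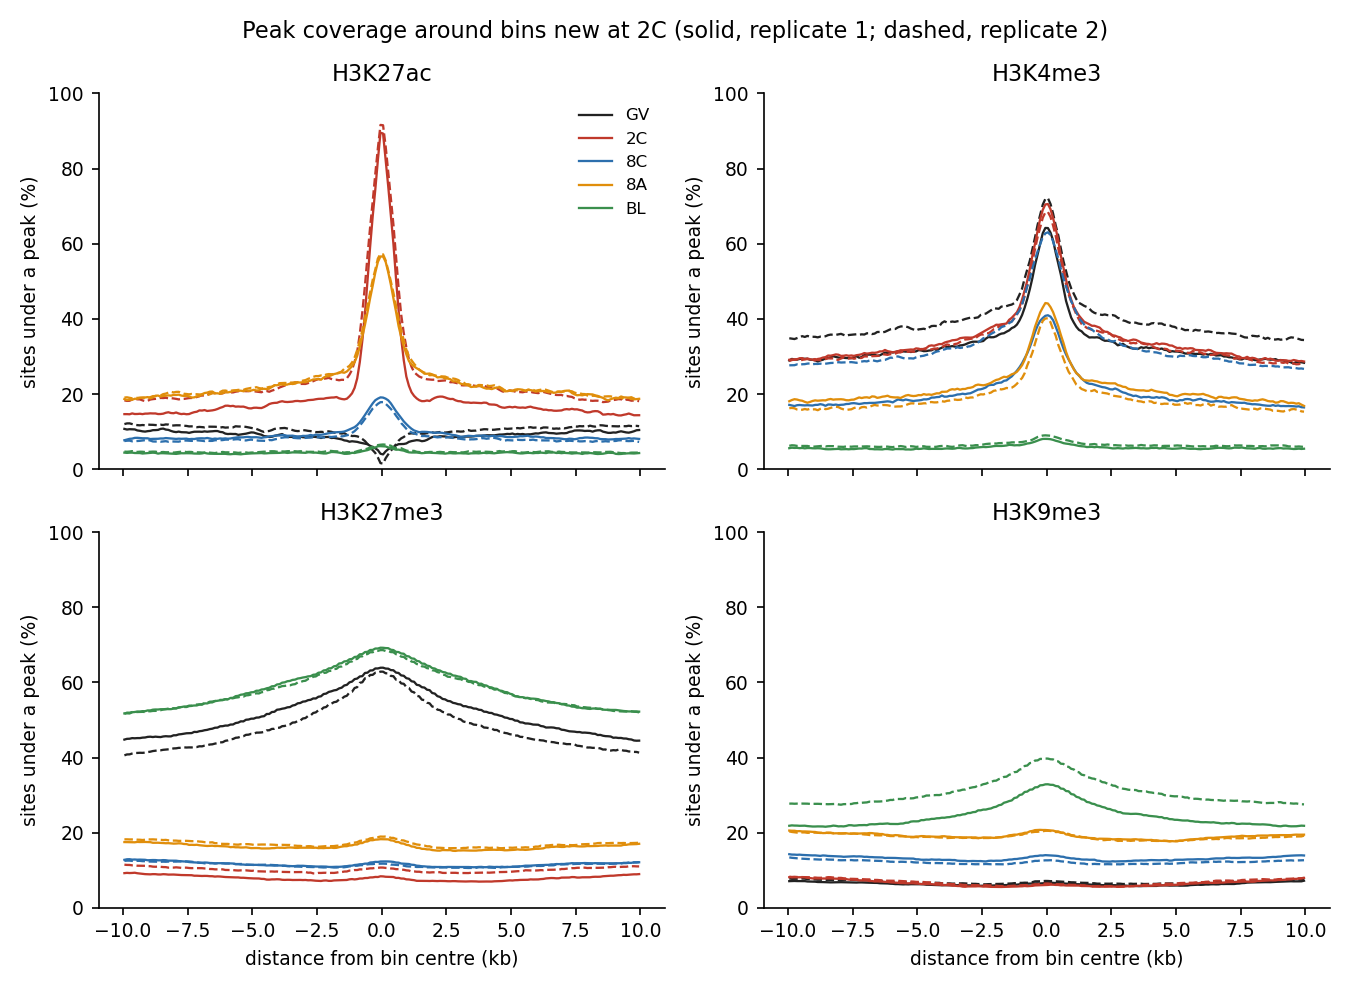
Percentage of the bins new at 2C that lay under a peak (vertical axis) by distance from the bin centre in kb (horizontal axis), for GV, 2C, 8C, 8A and BL; solid lines are replicate 1 and dashed lines replicate 2. H3K27me3 in GV stands at 63.4% at the centre and 42.8% at 10 kb, and H3K4me3 in GV at 68.1% and 31.6%; the summit of H3K27ac at 2C and its dip in GV follow from how the bins were chosen.

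At each later stage of untreated embryos, taken singly, most of the new bins were not acetylated. At 4C, H3K27ac marked 26.7% and 29.4% of the new bins, at 8C 19.9% and 18.4%, and at MO 13.1% and 12.5%. In BL it marked 5.97% and 6.43%, in ICM 12.1% and 10.4%, and in TE 7.06% and 7.17%. The libraries of 4C lay above both of 8C, and those of 8C above both of MO. The F ratio of these 6 groups, the mean square between groups over that between replicates, was 125.

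Counted over both libraries, 2184 new bins (16.8%, background 0.597%) were acetylated at 4C, 1803 (13.9%, background 2.56%) at 8C, 1336 (10.3%, background 3.54%) at MO, 695 (5.34%, background 1.71%) in BL, 1168 (8.98%, background 3.21%) in ICM and 765 (5.88%, background 1.89%) in TE. Neither 4C library marked 7885 (60.6%, against 97.97% of all bins), neither 8C library 9833 (75.6%, against 94.8%) and neither MO library 11007 (84.6%, against 94.3%). Both libraries of each of 4C, 8C and MO marked 168 bins (1.29%, background 0.107%). No library of these 3 stages marked 6063 (46.6%, background 89.9%). With 8A added to the 3 stages, 165 bins (1.27%, background 0.101%) were marked in both libraries of all 4 and 2742 (21.1%, background 87.8%) in none.

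The share at 4C depended on the limit of 50% coverage. Any part of a 4C H3K27ac peak touched 52.5% and 53.2% of the new bins, against 24.8% and 22.8% at 8C and 18.8% and 16.3% at MO. The 4C lists also covered the least sequence, marking 1.26% and 1.36% of all bins against 3.88% and 3.84% at 8C. With any covered base as the limit throughout, 31.5% of the bins chosen were marked in both 4C libraries, and with 75% coverage 10.1%. With lists shortened to one covered length the shares were 34.7% and 37.4% at 4C, 14.2% and 14.0% at 8C, and 7.13% and 6.80% at MO. The shortened BL, ICM and TE lists gave 6.40% to 7.19%, so the order among MO, BL, ICM and TE was not kept, while 4C stayed above 8C and 8C above MO. With 75% coverage 4C and 8C overlapped in single libraries (17.8% and 19.3% against 18% and 15.7%), and fewer bins were in both 4C than in both 8C libraries (10.1% against 11.8%). The same turn in the share marked in both libraries was seen without 2C replicate 1 in the rule (8.84% at 4C, 10.7% at 8C) and without 2C replicate 2 (10.2% and 11.97%), so the order of 4C and 8C is not firm. Kept bins were marked more often than new bins at each of these stages: 41.7% and 43.1% at 4C, 42.9% and 42.1% at 8C, and 30.4% and 30.7% at MO. Oocyte-only bins, at 19.8% and 19.3% at 8C, overlapped the new bins there, and at MO they were marked more often, at 19.4% and 19.7%.

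**Figure D3:**
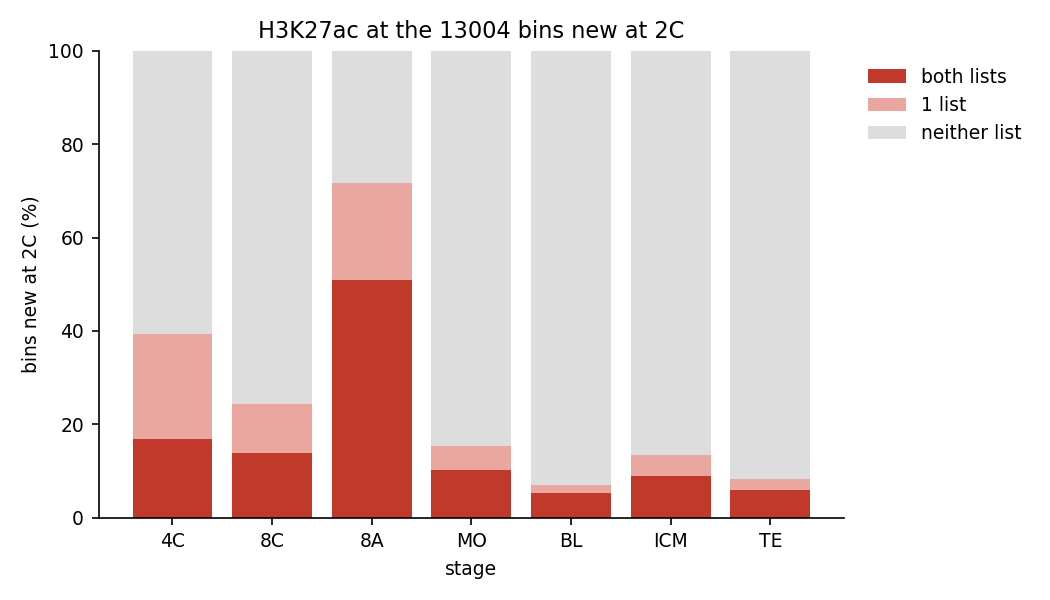
Percentage of the 13004 bins new at 2C (vertical axis) with H3K27ac in both libraries, in 1 library or in neither library of each later group (horizontal axis). Both libraries marked 16.8% at 4C, 13.9% at 8C, 50.9% in 8A and 10.3% at MO.

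Embryos grown with α-amanitin to the 8-cell stage had H3K27ac at far more of the new bins than untreated embryos of the same age. H3K27ac marked 60.6% and 61.9% of the new bins in 8A (61.2% ± 0.908, SD, n = 2) and 19.9% and 18.4% in 8C (19.1% ± 1.07, SD, n = 2). The difference of 42.1 points was 41.0 times the pooled SD of replicates, 1.03 points, and the libraries did not overlap. A comparison of 2 libraries with 2 cannot give an exact two-sided permutation p below 0.333. The 8A lists marked 3.85% and 4.13% of all bins against 3.88% and 3.84% for 8C, a mean difference of 0.128 points. By any covered base they touched more of the genome, 8.52% and 7.32% of all bins against 6.14% and 6.23% for 8C. In kept bins 8A was 27.3 points above 8C, both at a higher level than in new bins (mean 69.8% in 8A and 42.5% in 8C). In oocyte-only bins 8A was 2.23 points lower than 8C. With shortened lists the new bins were marked at 47.7% and 46.7% in 8A and 14.2% and 14.0% in 8C. Leaving 2C replicate 1 out of the rule, which let in bins marked in replicate 2 alone, gave a difference of 26.9 points, with 32.1% of the bins in both 8A libraries.

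Both 8A libraries marked 6619 of the new bins (50.9%, background 2.65%), against 61.1% of kept bins. Both 8A and neither 8C library marked 4185 (32.2%, background 1.23%), while both 8C and neither 8A library marked 123 (0.946%, background 1.14%). Both libraries of both groups marked 1493 (11.5%, background 0.988%). On each of the 29 autosomes both 8A libraries exceeded both 8C libraries, with 8A shares of 43.7% to 76.2% and 8C shares of 10.0% to 30.4%.

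Bins acetylated at 4C were mostly acetylated in 8A as well, in the new bins as elsewhere. Of the 2184 new bins found in both 4C lists, 92.3% were also in both 8A lists, against 92.5% of the kept bins and 85.1% of all bins found in both 4C lists. In both 8C lists the shares were 38.7%, 61.7% and 51.3%. The 978 in both 4C lists and in no 8C list (44.8% of them) were 7.52% of the new bins (background 0.193%). Of the 7885 absent from both 4C lists, 32.3% were acetylated in both 8A lists and 6.06% in both 8C lists. The shares were 33.8% and 16.6% of such kept bins and 1.44% and 1.87% of all such bins. Of the 1803 found in both 8C lists, 82.8% were also in both 8A lists, against 86.5% of such kept bins and 38.6% of all such bins. The 8A lists also held 1788 new bins (13.7%, background 0.656%) that no list of 4C, 8C or MO marked.

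The other marks at the new bins also differed between 8A and 8C, by less. H3K27me3 marked 19.4% and 20.1% in 8A and 12.8% and 12% in 8C, a difference of 7.35 points or 8.30 pooled SDs. H3K9me3 marked 21.9% in each 8A library and 14.3% and 12.6% in 8C, a difference of 8.42 points or 3.28 pooled SDs. For both repressive marks 8A was the higher group, with libraries that did not overlap, and shortened lists gave the same order (H3K27me3 10.6% in each 8A library against 7.10% and 6.66%; H3K9me3 8.22% and 8.49% against 5.63% and 4.67%). The repressive marks were also higher in 8A outside the new bins. Mean H3K27me3 was 5.23% in 8A and 3.63% in 8C for kept bins, and 6.18% and 3.40% for oocyte-only bins. Mean H3K9me3 was 6.33% and 3.13% for kept bins, and 7.83% and 4.58% for oocyte-only bins. Over all bins the differences were 0.425 and 0.499 points. H3K4me3 marked 48.2% and 43.1% of the new bins in 8A and 44.8% and 68.0% in 8C, so those libraries overlapped. Its direction changed with shortened lists, which gave 39.1% and 39.2% in 8A and 27.7% and 30.0% in 8C.

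With the lists as deposited, most of the new bins were under H3K27me3 peaks from the morula on, and few were under H3K4me3 peaks. With shortened lists only a minority were under H3K27me3 peaks in each of these groups. H3K27me3 marked 12.5% and 11.3% at 4C, 12.8% and 12% at 8C, 57.2% and 56.0% at MO, 71.3% and 70.5% in BL, 65.6% and 63.9% in ICM and 70.6% and 70.4% in TE. The step from 8C to MO was 44.2 points, or 49.9 pooled SDs. Kept bins also rose at this step, by 22.8 points, and oocyte-only bins by 7.08 points, while all bins differed by 0.722 points. H3K4me3 marked 68.3% and 75.5% of the new bins at 4C, 7.94% and 8.67% at MO, 8.22% and 9.30% in BL, 5.57% and 5.98% in ICM and 9.17% and 8.37% in TE. Between 8C and MO its mean was lower by 48.1 points, or 7.83 pooled SDs of 6.14 points, the wide spread coming from the 8C pair. Both MO libraries had H3K27me3 at 6876 new bins (52.9%, background 5.26%) and H3K4me3 at 924 (7.11%, background 1.65%), and both BL libraries had H3K27me3 at 8907 (68.5%, background 9.66%). The F ratio over the 8 untreated groups was 1927 for H3K27me3 and 53.7 for H3K4me3. Shortened lists gave H3K27me3 at 40.8% and 42.0% in MO and 39.0% and 37.4% in BL, so that BL was below MO under that alternative, while it was above MO with the lists as deposited and with the lowest-scoring 25% of each list left out (69.3% and 69.0% against 55.3% and 54.3%).

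Loss at 2C and return by the blastocyst took place at the same bins in many cases. H3K27me3 was in both GV, neither 2C and both BL libraries at 5629 new bins (43.3%, background 2.9%), against 9.87% of kept and 2.08% of oocyte-only bins. Of the 8092 new bins with H3K27me3 in both GV libraries, 68.5% had it in both MO libraries and 81.8% in both BL libraries. Kept bins with it in both GV libraries were close, at 60.3% and 79.9%. Such oocyte-only bins stood at 49.5% and 72.7%, and all such bins at 40.9% and 55.3%. The mark also appeared where the oocyte lacked it. Of 3819 new bins with H3K27me3 in neither GV library, 42.1% had it in both BL libraries. The same was true of 34.8% of such kept bins, 19.1% of such oocyte-only bins and 5.14% of all such bins.

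H3K9me3 at the new bins was highest in the blastocyst groups, and its F ratio over the 8 untreated groups was 57.1. It marked 5.68% and 6.08% at 2C, 12.7% and 13.3% at 4C, 14.3% and 12.6% at 8C, 14.9% and 19.4% at MO, 33.9% and 41.0% in BL, 23.2% and 29.9% in ICM and 45.5% and 45.7% in TE. Over all bins it marked between 3.88% and 7.54% in every library. TE lay 19.0 points above ICM, or 7.42 pooled SDs of 2.57 points, with no overlap. The same difference was 8.04 points over kept bins, 4.51 over oocyte-only bins and 1.68 over all bins. With shortened lists TE (28.8% and 29%) remained above ICM (20.5% and 22.3%) and overlapped BL (29.4% and 28.7%). Both libraries of each of H3K27me3 and H3K9me3 marked 4019 new bins (30.9%) in BL, 5186 (39.9%) in TE and 2637 (20.3%) in ICM. The shares were 12.2%, 16.0% and 8.29% of kept bins and 2.57%, 3.88% and 1.85% of all bins. H3K9me3 in both BL libraries was found at 4141 new bins (31.8%, background 3.45%) and in both TE libraries at 5391 (41.5%, background 4.89%), and 4019 and 5186 of these, as given above, also had H3K27me3 in both libraries.

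The share of new bins acetylated in each later group, 8A included, differed with the marks they had carried in the oocyte. Among the 6261 bins with H3K4me3 and H3K27me3 in GV, H3K27ac marked 32.2% and 34.7% at 4C, 70.2% and 71.1% in 8A, 18.3% and 16.7% at 8C and 9.81% and 9.77% at MO. Among the 1564 with H3K4me3 and no H3K27me3 it marked 28.8% and 34.0% at 4C, 65.8% and 66.2% in 8A, 22.8% and 22.0% at 8C and 14.8% in each MO library. The bivalent bins were thus higher in 8A and lower at 8C and MO, with no overlap in these groups.

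The bins without H3K4me3 in the oocyte stood lower at 4C and in 8A. Among the 674 with H3K27me3 and no H3K4me3, H3K27ac marked 13.8% and 18.5% at 4C, 37.1% and 39.8% in 8A and 16.8% and 14.1% at 8C. Among the 1652 with neither mark it marked 17.9% and 18.5% at 4C, 45.1% and 48.2% in 8A, 25.9% and 23.5% at 8C and 28.2% and 22.8% at MO. Those 1652 bins were the most often acetylated of the 4 classes at MO, in BL (12.4% and 13.7%), in ICM (31.1% and 27%) and in TE (14.7% and 14.8%). They were also the class with most H3K9me3 in the oocyte, at 30.8% and 32.8%, and least H3K27me3 in BL, at 27.1% and 26.4%. In the bivalent class H3K27me3 marked 86.3% and 85.3% in BL and H3K9me3 61.2% and 60.6% in TE.

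**Figure D4:**
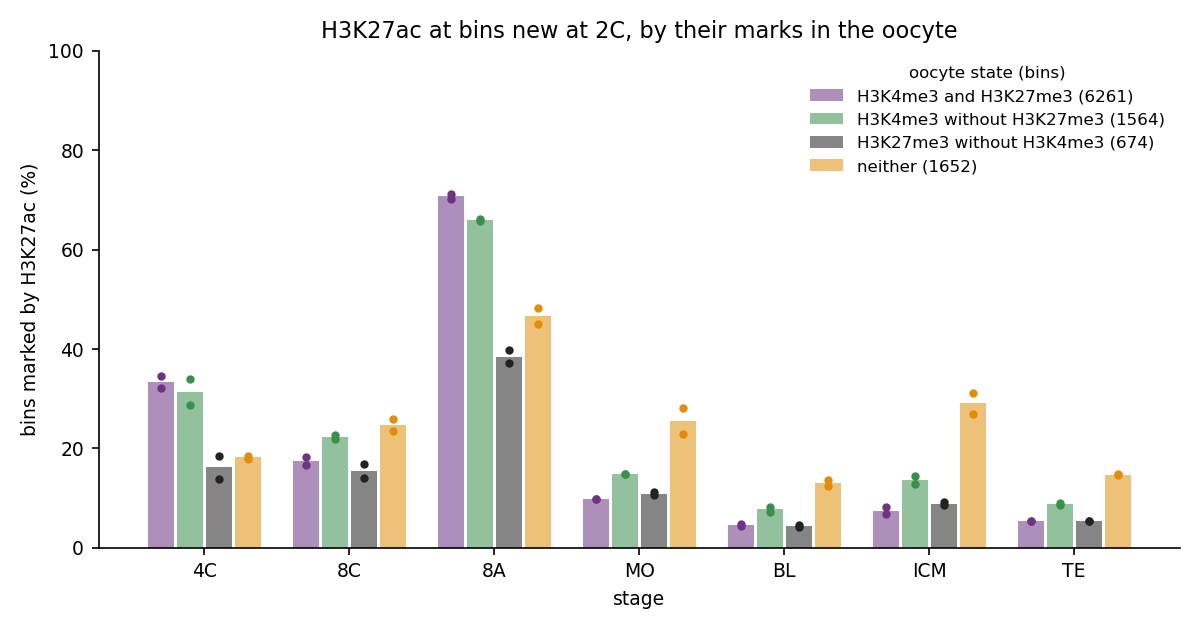
Percentage of the bins new at 2C marked by H3K27ac (vertical axis) in each later group, for 4 classes of oocyte marks (both GV libraries with the mark, or neither); bars are means and points the 2 libraries. Bins with H3K4me3 and H3K27me3 in the oocyte stand at 70.2% and 71.1% in 8A, and bins with neither are the highest class at MO (28.2% and 22.8%).

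The new bins formed 10451 runs of adjacent bins, 8655 of them (82.8%) a single bin, and 469 runs of at least 3 bins held 13.0% of the bins. Bins in runs of at least 3 had more oocyte H3K27me3 and more 8A acetylation than single bins, and less oocyte H3K9me3 (2.83% and 4.37% against 6.97% and 7.46%). GV H3K27me3 marked 84.8% and 83.7% of them against 60.9% and 59.9% of single bins. H3K27ac in 8A marked 76.3% and 78.3% against 55.9% and 57.2%, while at 8C the classes overlapped (19.9% and 17.1% against 19.8% and 18.6%).

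The longest run, 17 kb at chr25:897001-914000 of the ARS-UCD1.2 build, shows the course of the marks in 1 place. H3K27me3 covered 17 of its 17 bins in each GV library and none at 2C, 4C or 8C. H3K4me3 covered 15 and 16 bins in GV and 17 in each 2C library. H3K27ac covered all 17 at 2C, 3 and 2 at 4C, none at 8C and 17 and 16 in 8A. H3K27me3 covered 15 bins in each MO library and 17 in each BL and TE library, and H3K4me3 covered none from MO on. H3K9me3 covered 10 bins in each 8A library and none in GV, 2C, 4C, 8C, BL, ICM or TE, so 8A held acetylation and H3K9me3 peaks together over part of this run.

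The run at chr11:106327001-106337000 is the longest with H3K27ac in both 8A libraries and no 8C library. Its 10 bins were acetylated in each 2C and 8A library, 7 were in each 4C library and none at 8C. H3K27me3 covered all 10 in each GV, MO and BL library and none at 2C, 4C, 8C or 8A, and H3K9me3 covered none at any stage. The 6 kb run at chr21:69207001-69213000 followed the same course for H3K27ac (6 bins in each 2C and 8A library, 4 and 6 at 4C, none at 8C) and for H3K27me3 (6 in each GV, MO and BL library, none from 2C to 8C or in 8A). The 7 kb run at chr19:51336001-51343000 had the same H3K27ac pattern, with 7 bins in each 8A library, 3 in each 4C library and none at 8C.

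Other long runs differed in how much acetylation they kept at 8C. At chr6:115939001-115950000 (11 kb) H3K27ac covered 9 bins in each 4C library, 8 and 5 at 8C, 11 in each 8A library and 2 and 1 at MO, with H3K27me3 over all 11 bins in each GV and MO library and none from 2C to 8C. At chr17:71000001-71009000 (9 kb) it covered all 9 bins in each library of 4C, 8C and 8A and 2 and 4 at MO, where H3K27me3 and H3K9me3 each covered 9 bins in each library. H3K4me3 covered 1 bin of that run in each GV library and 9 and 8 at 2C. At chr5:119337001-119351000 (14 kb) H3K27ac covered 2 bins in each 4C library, none and 1 at 8C and 13 in each 8A library.

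Runs with H3K27ac in both libraries of all of 4C, 8C, 8A and MO were short. There were 104 of them, out of 10451 runs. Bins marked in both libraries of all 4 groups were 1.27% of the new bins, against 0.101% of all bins. The longest of these runs, of 2 kb each, differed from one another. The run at chr23:7489001-7491000 had no H3K27me3 or H3K9me3 peak bin in any library and H3K4me3 on 1 or 2 bins of each library from 2C on. The run at chr23:7726001-7728000 had H3K4me3 and H3K27me3 on both bins in each GV library and no H3K27me3 afterwards. The run at chr17:70976001-70978000 was marked by H3K27ac, H3K27me3 and H3K9me3 on both bins in each library from 2C to MO, and by ATAC on both bins in each of 9 libraries. Peaks of opposing marks in each library at 1 place limit what the lists say there.

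Acetylation in both 4C libraries and in no 8C library was found in 620 whole runs. Bins of this class were 7.52% of the new bins, against 0.193% of all bins. The longest runs were chr6:116259001-116262000, chr5:113536001-113539000 and chr1:145859001-145861000. On each of these every bin was acetylated in each 4C and 8A library and none at 8C. H3K4me3 covered all of their bins in each GV library. The reverse of the 8A pattern, both 8C libraries and no 8A library, was found in 103 runs. Bins of this class were 0.946% of the new bins, no more often than the 1.14% of all bins. These runs were led by the single bins chr11:103483001-103484000, chr3:9714001-9715000 and chr19:43314001-43315000, none of which was acetylated at 4C. Among runs with H3K4me3 on every bin in both GV libraries, the longest was chr29:49377001-49386000 (9 kb). There H3K27me3 covered all 9 bins in each GV, MO, BL, ICM and TE library and none at 2C, 4C or 8C, and H3K27ac covered none at 4C or 8C and 7 and 4 bins in 8A. The next longest, at chr2:5467001-5473000 and chr25:34532001-34538000, had 6 bins each, with H3K27me3 on 6 in each GV library and H3K27ac on 6 in each 8A library of the former and 5 of the latter.

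The new bins were unevenly spread over the genome. Their density was 5.23 per Mb over the autosomes, lowest on chromosome 1 at 2.28 and highest on chromosome 25 at 17.0, with 14.3 on chromosome 29 and 12.5 on chromosome 19. All bins marked in both 2C lists were spread in a similar way, at 5.54, 35.7, 25.6 and 33.9 per Mb on these chromosomes. The new bins were 41.1%, 47.8%, 55.6% and 37.0% of them there. The last 2 Mb of the autosomes, taken from the highest peak end on each, held 2368 new bins (18.2%), against 2.33% of all bins, 4.59% of kept and 1.65% of oocyte-only bins. The first 2 Mb held 3.05%. Cattle autosomes are acrocentric, with the centromere near an end.

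Bins in the last 2 Mb were more often under several marks, H3K4me3 as well as repressive ones. Mean H3K4me3 there was 90.9% at 2C and 80.2% in 8A, against 71.3% and 38.0% of the other new bins. At MO it was near equal (8.38% and 8.29%), as was mean H3K9me3 in GV (6.36% and 6.42%). GV H3K27me3 marked 81.3% and 80.4% of the bins in the last 2 Mb, against 63.8% and 62.6% of the other new bins. H3K9me3 in TE marked 65.3% and 62.5%, against 41.1% and 41.9%. H3K27ac marked 76.4% and 75.5% in 8A and 13.4% and 11.1% at 8C, against 57.1% and 58.9% in 8A and 21.3% and 20.0% at 8C elsewhere. Without the last 2 Mb the difference between 8A and 8C was 37.3 points, and H3K27me3 was in both GV libraries at 58.7% of the bins, so neither rests on the chromosome ends.

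**Figure D5:**
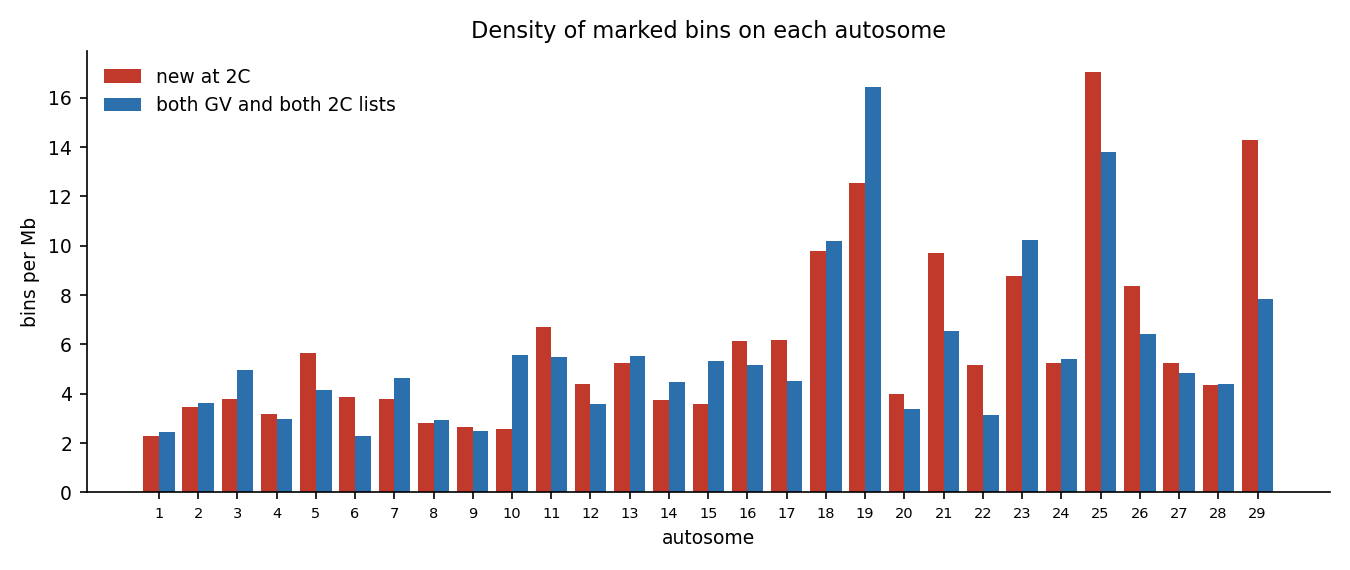
Number of bins per Mb (vertical axis) on each autosome (horizontal axis) for bins new at 2C and for bins marked in both GV and both 2C H3K27ac lists. The new bins range from 2.28 per Mb on chromosome 1 to 17.0 on chromosome 25.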

How the data were processed

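The authors deposited a list of peaks for each library, every peak having a position, a name and a score. BWA 0.7.9a, SAMtools 1.9, Picard 2.26.10, cutadapt 1.8.3, Trim Galore 0.4.0 and SICER were among the tools, and ARS-UCD1.2 the genome build, per the submitters' processing notes, which give no roles or order. The lists themselves are named for the caller epic2. The meaning of the deposited score was not established, and it served only to rank peaks within a list. Whether input libraries were used is not given in the sources used here. All 81 lists were placed in groups from their titles.

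Peaks were counted in 1 kb bins from position 0 in Python 3.11.15 (pandas 2.3.3, NumPy 2.4.6), and a bin was marked at 50% coverage or more. The pooled SD was taken over the groups of a mark. Stage differences were measured as the F ratio, the mean square between groups over that between replicates, set against all rearrangements of the libraries. The p-values of these planned tests are not reported, because the bins and lists were chosen with earlier results of these data known, and a p-value for a summary over such bins would overstate the support. The binning and tests were tested on simulated data. Named runs were chosen by rule: the 5 longest, and the 3 longest of each class of later H3K27ac or GV marks, ties being settled by 2C coverage and then position. Genes were not assigned, because the gene table used here is of another assembly.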

Additional observations from a re-analysis of the deposited data

Results flagged for a closer look

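Outside the autosomes, 82 bins of X met the same rule, of 251 X bins marked in both 2C lists. Their density was 0.590 per Mb, against 5.23 over the autosomes. H3K27ac marked 58.5% and 59.8% of these 82 bins in 8A and 25.6% and 23.2% in 8C. On unplaced scaffolds 219 bins met the rule (5.85 per Mb), of 946 marked in both 2C lists. H3K27ac marked 76.3% and 76.7% of these 219 bins in 8A and 38.8% in each 8C library. No share over all bins of X or of the scaffolds stands beside these 8A and 8C values. The X and scaffold bins are listed because they come from sequence that no comparison above uses.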

How the results depend on the processing

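The 8A share of H3K27ac exceeded the 8C share under every alternative run. The order of 4C and 8C in the share marked in both libraries, 16.8% and 13.9% as reported, turned with 75% coverage, without 2C replicate 1 (8.84% and 10.7%) and without 2C replicate 2 (10.2% and 11.97%). In what follows, shares are percentages of the bins chosen that were marked in both libraries. With any covered base as the limit there were 22308 bins, with 31.5% at 4C, 15.2% at 8C, 58.3% in 8A, 13.0% at MO, and GV H3K4me3 72.4%, H3K27me3 64.0% and H3K9me3 7.61%. With 75% coverage there were 5815 bins, with 10.1% at 4C, 11.8% at 8C, 44.8% in 8A, 7.76% at MO, and GV H3K4me3 59.3% and H3K9me3 4.09%. With lists shortened to one covered length the shares were 23.4% at 4C, 10.7% at 8C, 37.7% in 8A, 5.49% at MO, and GV H3K4me3 27.4%, H3K27me3 33.2% and H3K9me3 2.11%. Without the lowest-scoring 25% of each list, MO was 9.69% and GV H3K27me3 59.6% and H3K9me3 4.32%. With no oocyte peak bin next to a new bin, they were 9.58%, 66.4% and 6.17%. Bins shifted by 500 bp moved GV H3K9me3 to 5.94%. Of the alternatives chosen after seeing the data, leaving out the last 2 Mb of chromosomes gave 15.2% at 8C, 47.4% in 8A, 11.2% at MO and 58.7% for GV H3K27me3, and allowing no base under an oocyte H3K27ac peak gave 67.0% for GV H3K27me3 and 6.45% for H3K9me3.

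Leaving out 1 library at a time gave 14469 to 36696 bins, 8.84% to 29.4% at 4C, 10.7% to 19.9% at 8C, 32.1% to 61.9% in 8A, 9.41% to 13.1% at MO, and GV H3K4me3 48.2% to 76.5%, H3K27me3 50.7% to 67.0% and H3K9me3 4.73% to 8.75%. The lowest 4C, 8C, 8A and MO values came without 2C replicate 1, and the highest where a single library of the stage stood for both. The difference between 8A and 8C ranged from 26.9 to 42.9 points. Replicate numbers are shared between groups but nothing says that they pair libraries. Replicate 1 was the higher in 3 of 6 groups for H3K27ac, 2 of 8 for H3K4me3, 7 of 8 for H3K27me3 and 1 of 8 for H3K9me3. With the replicate number as a block the F ratios were 104, 64.7, 2178 and 76.9, against 125, 53.7, 1927 and 57.1 without it. Unknown depth limits these lists: a bin without a peak may carry the mark below what its library could show.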

Other observations

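Open chromatin in the blastocyst was measured at a minority of the bins new at 2C. ATAC-seq marked 13.3%, 22.5% and 24.8% of them in the BL libraries, 12.8%, 16.4% and 12.6% in ICM and 15.0%, 17.4% and 13.3% in TE. Over all bins the range was 2.84% to 4.43%, and the kept bins stood at 31.1% to 44.2%. The groups overlapped, and ICM and TE differed by less than the pooled SD of 3.93 points. Bins that were acetylated in both 8A and both 8C libraries were open more often, at 28.3%, 33.6% and 27.3% in ICM, than those acetylated in both 8A and no 8C library, at 13.5%, 17.2% and 13.3%.

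A small group of new bins stayed acetylated throughout. Both libraries of each of 4C, 8C, MO, BL, ICM and TE marked 42 of them (0.323%), against 572 kept bins (4.60%) and 0.0552% of all bins. At the other end, 5656 new bins (43.5%) were in no H3K27ac library of these 6 groups, against 23.0% of kept bins, 57.7% of oocyte-only bins and 87.9% of all bins.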
